A study of Danio rerio with 18 samples.

Results

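The genes described are the bone morphogenetic protein (BMP) and transforming growth factor beta (TGF-beta) signalling genes of the zebrafish: ligands, receptors, Smad proteins and secreted antagonists. They were taken by symbol, as every gene whose name begins as a BMP, growth differentiation factor (GDF), TGF-beta, Smad, noggin, chordin, inhibin beta, activin receptor, follistatin or gremlin gene. The pattern matched 82 of the 31901 genes in the count table, and 80 remained once the oocyte ligands bmp15 and gdf9 were left out. The pattern uses names alone, though it was set with earlier results of these data known. 2 of the 80 identifiers carry the symbol grem1a, and 2 matches, the kinase gene bmp2k and the adaptor gene tgfbrap1, are no ligand, receptor or Smad.

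The study asked what differs in RNA between kif7 mutant zebrafish that develop a curved spine and those that do not. The allele kif7co63 was made by genome editing and is described as hypomorphic, and kif7 encodes a kinesin of the hedgehog pathway and the primary cilium. AB is the wild-type strain, and not every homozygote develops a curve. Whole fish were sequenced at 6 weeks past fertilization (wpf), 1 fish per library and 3 libraries per group: AB, kif7co63/+, non-scoliotic kif7co63/co63 and scoliotic kif7co63/co63. Whole embryos were sequenced at 4 days past fertilization (dpf) as pools of 20, with 2 pools each of AB, kif7co63/+ and kif7co63/co63, so that 18 libraries fell into 7 groups. The homozygous fish descended from crosses of homozygous parents and AB fish are a separate stock, so genotype and family cannot be told apart. Curvature status was not known at 4 dpf, and sex was not used here.

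As background, BMP, GDF, activin and TGF-beta ligands bind pairs of type I and type II receptor kinases, which phosphorylate receptor Smads: Smad1, Smad5 and Smad9 for BMPs, and Smad2 and Smad3 for TGF-beta and activin. Receptor Smads join Smad4 to enter the nucleus, while Smad6 and Smad7 inhibit the cascade. Noggin, chordin, gremlin and follistatin bind ligands outside the cell. The pathway is known for patterning the embryo and for the growth and repair of cartilage, bone, tendon and the intervertebral discs.

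Libraries held 44503110 to 69698533 counted reads. Levels are given as CPM, read counts scaled by normalized library size, in replicate order, and levels of different genes are compared only per length, as FPKM. The mutated gene itself, kif7, read 41.7 to 47.7 CPM in AB fish at 6 wpf against 23.6 to 32.3 in kif7co63/+ fish and 25.5 to 29.8 in the 6 homozygous fish. In embryos it read 15.3 and 12.9 CPM in AB, 14.8 and 15.6 in kif7co63/+ and 10.8 and 21.5 in kif7co63/co63 pools. The 2 homozygous pools of embryos stood apart from each other: over 73 signalling genes with more than 3 reads in every library, they differed by a median of 0.71 on the log2 scale, against 0.14 to 0.23 for the other 14 pairs of libraries of the same group. Marker genes of other cells differed between groups of whole fish. Summed oocyte markers read 5094 to 5833 CPM in AB fish, 2809 to 5064 in kif7co63/+ fish, 2.86 to 1228 in non-scoliotic and 4.34 to 529 in scoliotic homozygotes, and 3.27 to 4.60 in embryos, with zpcx of the 15 listed genes at 0 throughout. Summed cartilage markers read 820 to 1015 CPM in AB, 545 to 626 in kif7co63/+, 1739 to 2332 in non-scoliotic and 2030 to 2916 in scoliotic fish. In whole fish, fewer cells of a type and less RNA per cell cannot be told apart.

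Nearly the whole pathway was transcribed. More than 3 reads were found for 73 of the 80 genes in every library. At the other end, smad1 and nog3 had no read in any library, which allows up to 3 reads or 0.0429 to 0.0709 CPM. fsta and the grem1a identifier on chromosome 19 had 1 read in all. The annotation release and the split of reads shared by duplicate genes are not given. A lack of counted reads therefore need not be a lack of RNA, and its reason was not tested. gdf11, a ligand that patterns the axial skeleton in mice, never passed 12 reads. Per length, the highest mean over the 18 libraries was that of fstl1b (56.2 FPKM), a secreted follistatin-like glycoprotein. It was followed by the GDF ligand gdf3 (31.3 FPKM), the type II TGF-beta receptor tgfbr2b (27.9 FPKM), the ligand tgfb3 (26.8 FPKM), the BMP effector smad5 (22.1 FPKM) and the procollagen protease bmp1a (21.4 FPKM). Group means of gdf3 ran from 3.71 CPM in kif7co63/co63 embryos to 232 CPM in AB fish.

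**Figure D1:**
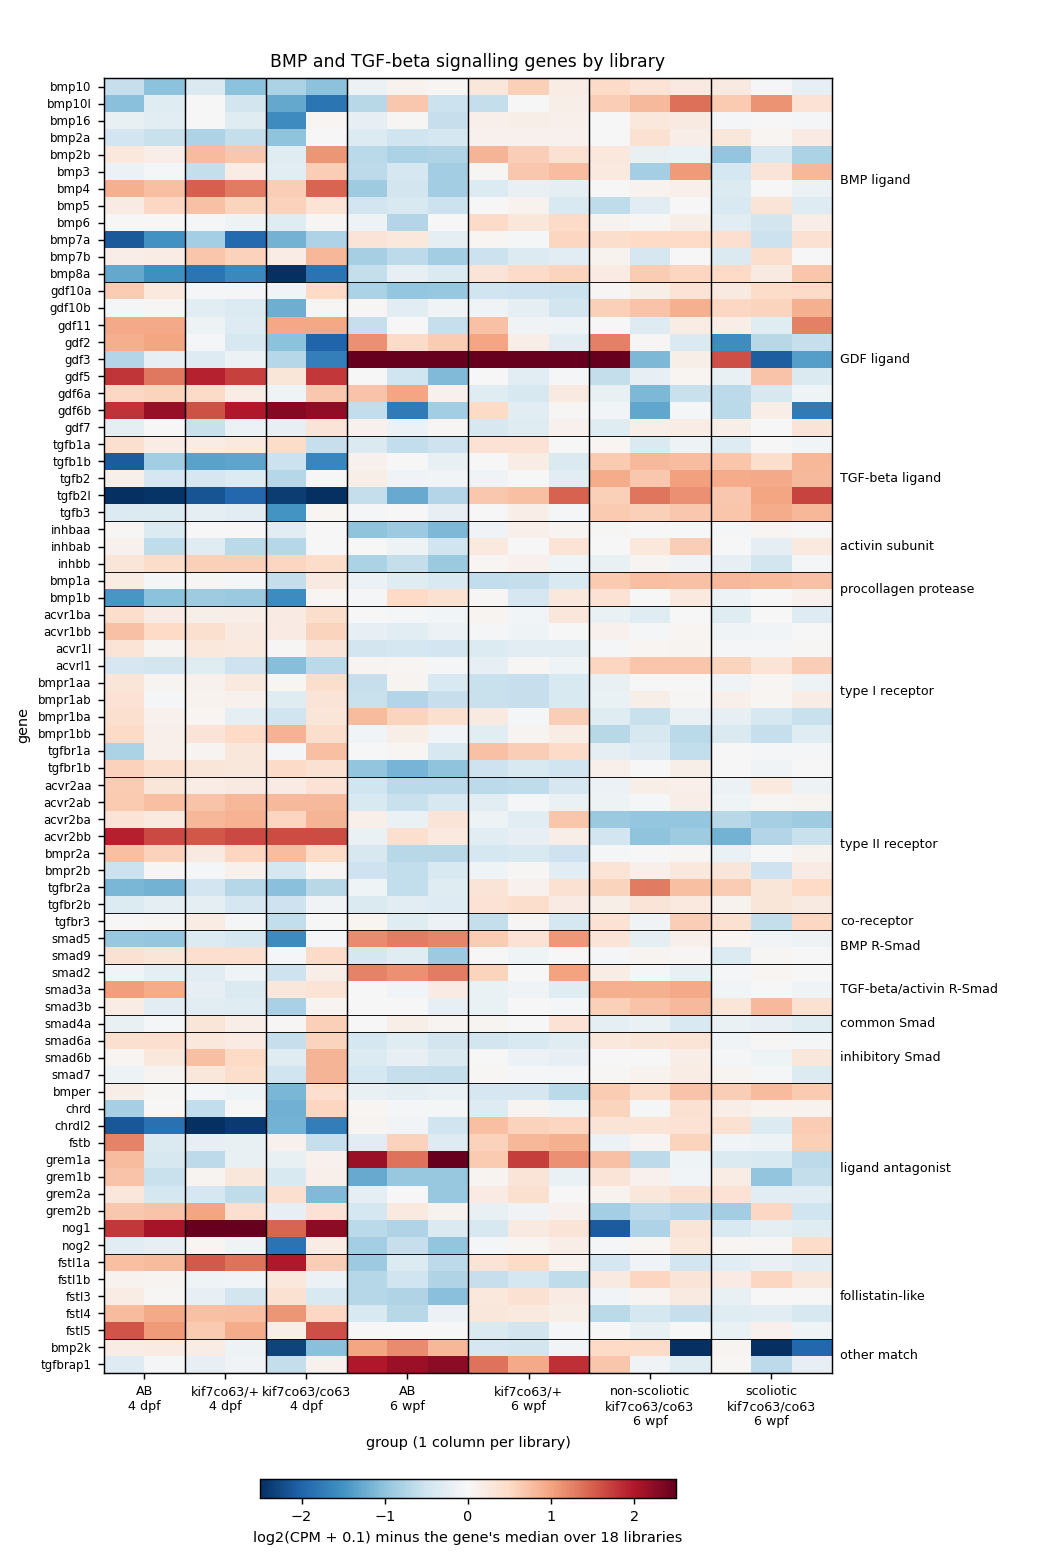
Each row is a gene with more than 3 reads in at least 1 library, grouped by role, and each column a library. Colour shows log2(CPM + 0.1) minus the gene's median over the 18 libraries. Among fish of 6 wpf, gdf3, tgfbrap1, smad5 and smad2 are high in AB, and tgfb2, tgfb3, bmp1a and acvrl1 are high in homozygotes.

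Between scoliotic and non-scoliotic homozygotes only 1 gene of the pathway was called, smad3a, which encodes a Smad that carries TGF-beta and activin signals. It read 12, 12.6 and 11.8 CPM in scoliotic fish and 23.5, 23.2 and 24.2 CPM in non-scoliotic fish. The groups did not overlap, and the scoliotic level was 0.516 of the non-scoliotic level. The log2 fold change was -0.96 (SE 0.09, adjusted p = 0.0103, from the quasi-likelihood test of edgeR, adjusted by Benjamini and Hochberg's method, as is every adjusted p here). Of 73 signalling genes tested, 1 was called (1.37%), where 0.38% of all genes tested were. The call was lost without non-scoliotic 1 (adjusted p = 0.0777) or 3 (0.0631) and without scoliotic 1 (0.0766) or 3 (0.0515), while the fold change stayed between -0.99 and -0.94.

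In the other groups of 6 wpf smad3a lay near the scoliotic level. AB fish read 12.6, 12 and 14.4 CPM, and kif7co63/+ fish read 11.2, 11.8 and 10.2 CPM. Both groups overlapped the scoliotic values or lay just below them. Non-scoliotic fish were higher than AB fish by 0.81 (SE 0.10, adjusted p = 0.00127) and higher than kif7co63/+ fish by 1.08 on the log2 scale (SE 0.11, adjusted p = 0.000678). Scoliotic fish were not called against AB (-0.17, SE 0.12, adjusted p = 0.276). Among embryos, AB pools read 26.0 and 24.0 CPM, kif7co63/+ pools 10.9 and 9.76 CPM, and kif7co63/co63 pools 15.4 and 16 CPM. The kif7co63/+ pools were lower than AB (log2 fold change -1.22, SE 0.17, adjusted p = 0.00856), a call lost without either kif7co63/+ pool (adjusted p = 0.0771 each).

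smad3a lies on chromosome 7 (GRCz11, 34102661 to 34149263), and kif7 lies on the same chromosome at 14393059 to 14446512. Its neighbours were looked at after these values were seen. Of 22 other genes tested within 500 kb, 3 were called between scoliotic and non-scoliotic fish, all lower in scoliotic fish: crybgx (log2 fold change -2.43, adjusted p = 0.0417), dis3l (-2.21, adjusted p = 0.0218) and fibinb (-1.33, adjusted p = 0.00891). Over all genes tested, 0.38% were called in this comparison and 0.136% were called lower. The same 3 genes were called lower in kif7co63/+ than in AB embryos, with lctla as the 4th of 22, where 6.21% of all genes were called. Against AB at 6 wpf, 11 of 23 neighbours were called in scoliotic, 9 of 23 in non-scoliotic and 11 of 23 in kif7co63/+ fish. Over all genes these shares were 42.1%, 43.1% and 36.2%. Between homozygous embryos and AB or kif7co63/+ embryos 0 of 22 were called, where 0.509% and 0.0358% of all genes were. The nearest member, the inhibitory Smad gene smad6a, starts 33700 bases past the end of smad3a and was not called (-0.32, SE 0.09, adjusted p = 0.525). It read 12.3, 13.3 and 12.8 CPM in scoliotic and 15.6, 16 and 16.5 CPM in non-scoliotic fish, which did not overlap. The part of these neighbours, or of the shared chromosome, in the smad3a values was not tested.

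**Figure D2:**
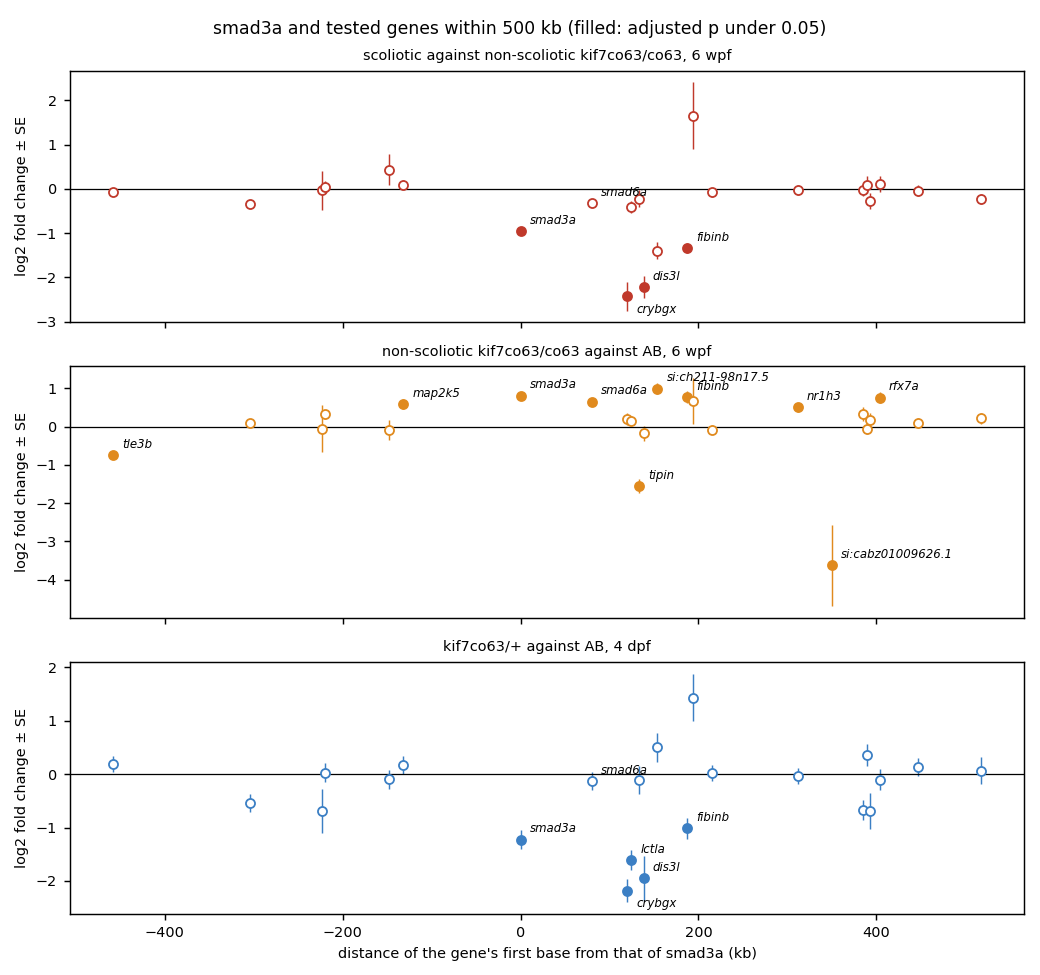
Log2 fold change with its standard error for smad3a and each tested gene within 500 kb, against the distance of its first base from that of smad3a in kb, in 3 comparisons. Filled points have an adjusted p under 0.05. smad3a, crybgx, dis3l and fibinb are lower in the top panel (scoliotic against non-scoliotic) and in the bottom panel (kif7co63/+ against AB embryos).

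The other 72 tested signalling genes were not called between scoliotic and non-scoliotic fish, which does not show the absence of a difference. In simulated data of this comparison 200 changes were planted, of 2-fold and 4-fold size in equal number. The edgeR test recovered 3 of those of 2-fold and 56 of those of 4-fold size, with 4 false calls among 63. DESeq2 recovered 43 and 81, with 68 false calls among 192. With smad3a counted, the ranges of 4 genes lay wholly higher and of 6 wholly lower in scoliotic fish, where 6.35% and 6.29% of all genes tested did. The liver-made endothelial ligand gdf2 (BMP9) read 0.157, 0.365 and 0.402 CPM in scoliotic fish, from 7 to 17 reads, and 1.70, 0.668 and 0.486 CPM in non-scoliotic fish (log2 fold change -1.61, SE 0.65, adjusted p = 0.752). tgfb3 read 81.9, 97.1 and 90.6 CPM against 79.7, 76.5 and 80.5 CPM (0.20, SE 0.09, adjusted p = 0.776). The median log2 fold change of the signalling genes was -0.03, against 0.00 over all genes.

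Against AB fish of the same age, homozygotes differed widely. In scoliotic fish 26 of 74 tested signalling genes were higher (35.1%) and 12 lower (16.2%), where 19.2% and 23.0% of all genes were, or 42.1% in either direction. In non-scoliotic fish 33 of 74 were higher (44.6%) and 11 lower (14.9%), where 21.2% and 21.9% of all genes were, or 43.1% in either direction. The median log2 fold change was 0.30 in scoliotic and 0.44 in non-scoliotic fish, against 0.02 and 0.04 over all genes. In kif7co63/+ fish 23 of 74 were higher (31.1%) and 4 lower (5.41%), where 18.6% and 17.6% of all genes were, or 36.2% in either direction, and the median was 0.15 against 0.03. The 3 comparisons share the AB libraries. Without kif7co63/+ replicate 1, 17 signalling genes in place of 27 were called against AB, and over all genes 5195 in place of 8352. In scoliotic fish the ranges of 34 genes lay wholly above AB and of 13 wholly below, where 30.3% and 27.2% of all genes did. In non-scoliotic fish these were 41 and 13 (all genes, 31.3% and 27.0%), and in kif7co63/+ fish 31 and 8 (26.9% and 25.4%). Against kif7co63/+ fish, 25.8% and 27.1% of all genes did so in scoliotic and 26.1% and 26.5% in non-scoliotic fish. Counts by role and statements of overlap in what follows are to be read against these shares over all genes.

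**Figure D3:**
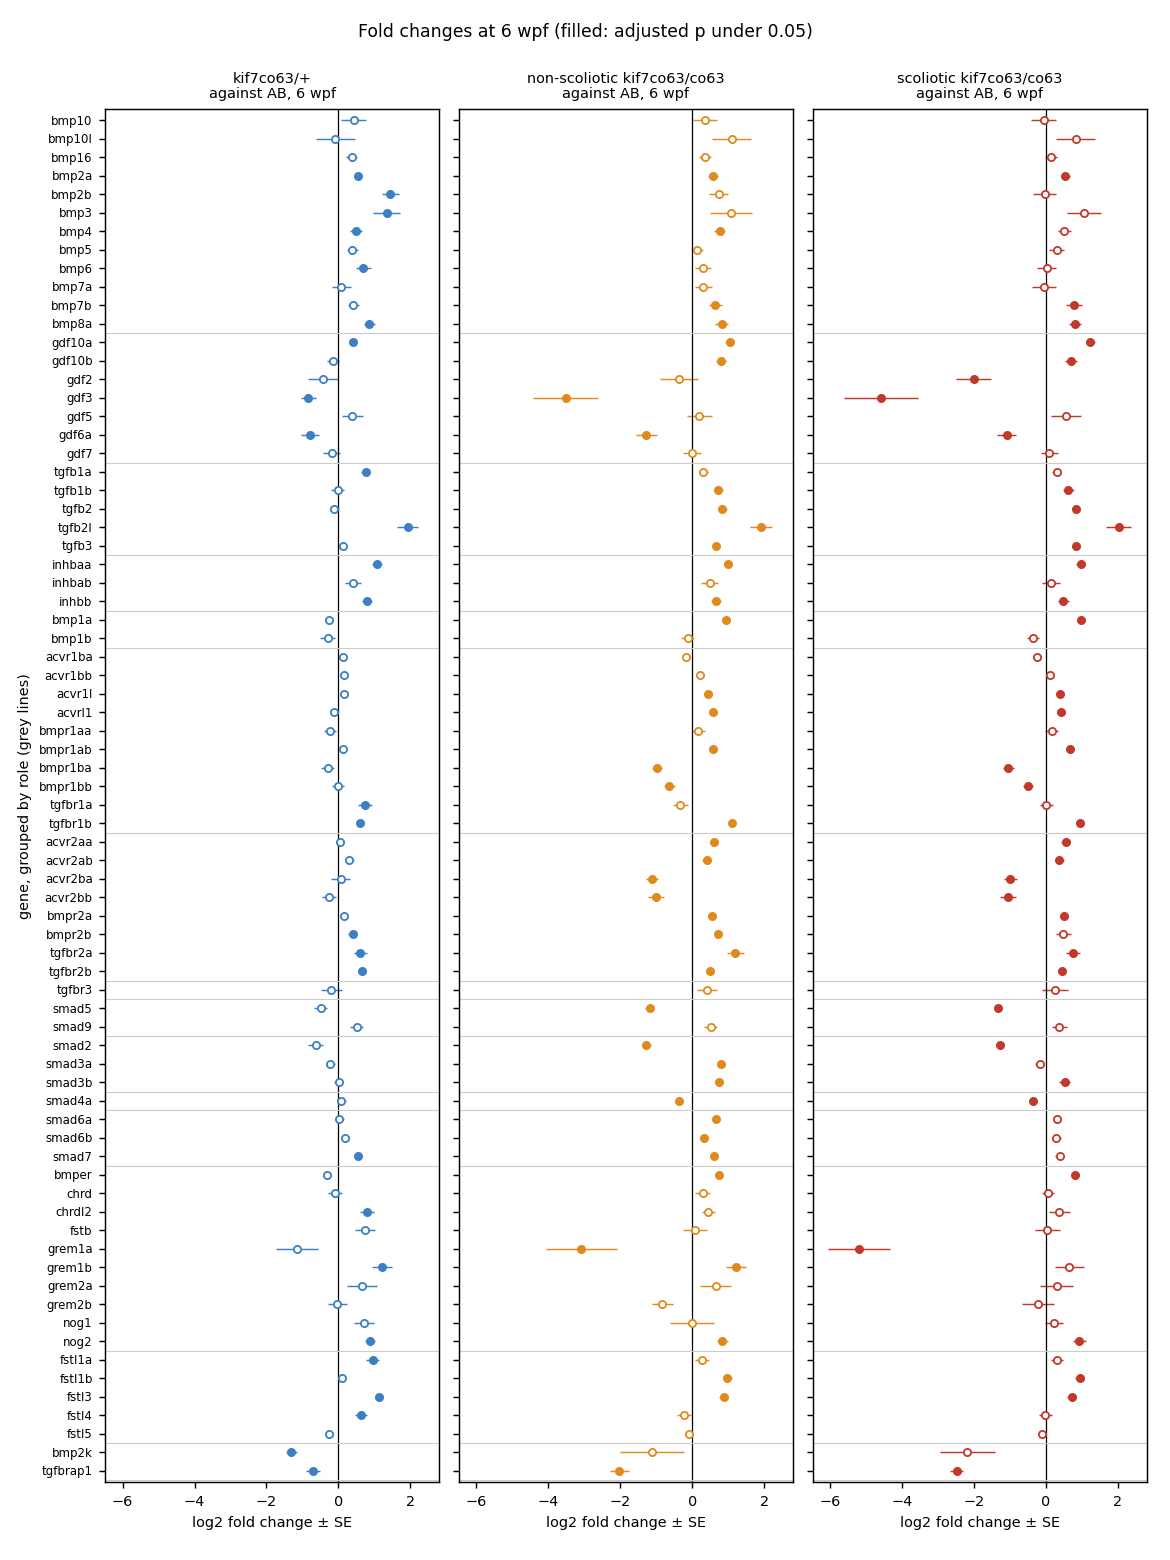
Log2 fold change with its standard error against AB at 6 wpf for each tested signalling gene, in kif7co63/+, non-scoliotic and scoliotic fish. Filled points have an adjusted p under 0.05. The TGF-beta ligands all lie to the right of 0 in both homozygous panels, where the points of tgfb1b, tgfb2, tgfb2l and tgfb3 are filled and that of tgfb1a is open.

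TGF-beta ligands were higher in homozygotes. Of the 5 genes, 4 were called higher in each homozygous group against AB, and tgfb1a was not (0.30 in scoliotic and 0.31 in non-scoliotic fish). tgfb2, a ligand that acts in heart valve and skeletal development in mice, read 18.6, 15.9 and 16.2 CPM in AB and 16, 16.9 and 13.9 CPM in kif7co63/+ fish. It read 32.2, 27.2 and 34.5 CPM in non-scoliotic and 32.4, 32.7 and 29.7 CPM in scoliotic fish. All 6 homozygotes lay above all 6 other fish, at log2 fold changes against AB of 0.84 (SE 0.12, adjusted p = 0.00171) and 0.83 (SE 0.10, adjusted p = 0.00089). Against kif7co63/+ the differences were 0.99 (SE 0.13, adjusted p = 0.00195) and 1.02 (SE 0.11, adjusted p = 0.0012).

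tgfb3, best known for its part in palate closure in mice, had the same order. It read 48.9, 51.2 and 44.1 CPM in AB, 50.3, 56.7 and 49.96 in kif7co63/+, 79.7, 76.5 and 80.5 in non-scoliotic and 81.9, 97.1 and 90.6 in scoliotic fish. The homozygous groups did not overlap the others, with log2 fold changes against AB of 0.67 (SE 0.08, adjusted p = 0.00118) and 0.83 (SE 0.10, adjusted p = 0.000967). The duplicate ligand gene tgfb2l was higher in all 3 kif7co63 groups: it read 1.65, 0.995 and 1.47 CPM in AB, 4.11, 4.34 and 7.16 in kif7co63/+, 3.84, 6.57 and 5.69 in non-scoliotic and 4.07, 5.11 and 8.36 in scoliotic fish. This was 3.80-fold, 3.79-fold and 4.06-fold the AB level (adjusted p = 0.00206, 0.00284 and 0.00441). tgfb1b read 6.76 to 8.20 CPM in AB, 5.96 to 8.66 in kif7co63/+ and 10.4 to 13.7 in the 6 homozygotes. Its call in scoliotic fish (0.63, SE 0.15, adjusted p = 0.017) was lost without AB 3 (adjusted p = 0.0636) or scoliotic 3 (0.0562). tgfb1a had another pattern: it was called higher in kif7co63/+ fish (33.3 to 42.8 CPM, against 21.4 to 25.9 in AB, log2 fold change 0.75, SE 0.13, adjusted p = 0.00337).

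At 6 wpf 2 of the 3 activin subunit genes, inhbaa and inhbb, were called higher than in AB in each kif7co63 group. inhbaa, which encodes the beta A subunit of activin and inhibin, read 6.22, 6.61 and 5.72 CPM in AB, 11.9, 13.7 and 13.2 in kif7co63/+, 12.8, 12.5 and 12.7 in non-scoliotic and 12.3, 13 and 12.6 in scoliotic fish. AB fish lay below the other 9, which overlapped among themselves. The log2 fold changes against AB were 1.07 (SE 0.13, adjusted p = 0.000773), 0.99 (SE 0.11, adjusted p = 0.000942) and 0.96 (SE 0.12, adjusted p = 0.00113). inhbb, the beta B subunit, read 9.66 to 12.2 CPM in AB, 17.1 to 19.9 in kif7co63/+, 16.3 to 19.4 in non-scoliotic and 13.5 to 17.9 in scoliotic fish. It was called in all 3 groups, at 0.79 (adjusted p = 0.00256), 0.66 (adjusted p = 0.00679) and 0.47 (adjusted p = 0.0426), but the last call was lost without AB 1 or 3 or scoliotic 1 or 3 (adjusted p = 0.0939 to 0.134). inhbab was called in none of the 3 groups, and no subunit gene was called against AB at 4 dpf.

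Of 12 BMP ligand genes tested, 3 were called higher in scoliotic, 4 in non-scoliotic and 6 in kif7co63/+ fish, and none lower, where 19.2%, 21.2% and 18.6% of all genes were called higher. bmp8a read 5.49, 7.25 and 6.49 CPM in AB and 9.68 to 13.6 CPM in the other 9 fish, and was called in all 3 groups (log2 fold changes 0.81 to 0.86, adjusted p = 0.0111 in scoliotic, 0.00958 in non-scoliotic and 0.00384 in kif7co63/+ fish). bmp4, a main skeletal and ventral BMP, read 6.34, 8.61 and 6.49 CPM in AB and 12, 12.7 and 13.1 CPM in non-scoliotic fish (0.77, SE 0.15, adjusted p = 0.00712). It was also called in kif7co63/+ fish, near the threshold (0.48, SE 0.16, adjusted p = 0.0466). In scoliotic fish it read 9.39, 11.8 and 10.8 CPM and was not called (0.51, SE 0.17, adjusted p = 0.0541). bmp2b, required for ventral fates in the zebrafish embryo, was called in kif7co63/+ fish, which read 3.31, 2.80 and 2.37 CPM against 1.09, 0.995 and 1.03 in AB (2.73-fold, adjusted p = 0.0027). Scoliotic fish lay back at 0.854, 1.33 and 0.992 CPM and were lower than kif7co63/+ fish (log2 fold change -1.41, SE 0.29, adjusted p = 0.00918). bmp2a read 7.91 to 8.80 CPM in AB and 11.2 to 14.7 CPM in the other 9 fish (0.54 in kif7co63/+, adjusted p = 0.00907, 0.58 in non-scoliotic, adjusted p = 0.0158, and 0.54 in scoliotic fish, adjusted p = 0.0122). The call of bmp2a in non-scoliotic fish was lost without AB 2 (adjusted p = 0.0516) or AB 3 (0.0513). bmp7a, the partner of bmp2b, and bmp5 were not called against AB in any group.

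Among the GDF genes, gdf10a and gdf10b (BMP3b) were higher in homozygotes. gdf10a read 10.8, 9.59 and 9.81 CPM in AB, 13.4, 13.2 and 13.1 in kif7co63/+, 19.2, 21.0 and 23.9 in non-scoliotic and 22.1, 26.0 and 26.5 in scoliotic fish. No 2 of these groups overlapped except the 2 homozygous ones. Against AB the log2 fold change was 1.04 (SE 0.12, adjusted p = 0.000848) in non-scoliotic and 1.23 (SE 0.12, adjusted p = 0.000425) in scoliotic fish. kif7co63/+ fish were called higher as well (0.40, SE 0.12, adjusted p = 0.0287). gdf10b read 5.48 to 6.74 CPM in AB, 4.77 to 6.18 in kif7co63/+ and 9.41 to 12.3 in the 6 homozygotes, called at 0.80 (adjusted p = 0.0046) and 0.71 (adjusted p = 0.0148). gdf5, which marks forming joints, and gdf7 were called in no group.

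Other GDF genes were lower. gdf6a, which acts in eye and axial skeleton development, read 13.6, 16.4 and 8.86 CPM in AB, 6.70, 6.24 and 9.65 in kif7co63/+, 7.29, 3.74 and 5.62 in non-scoliotic and 5.26, 6.21 and 7.63 in scoliotic fish. The kif7co63/+ group overlapped AB and the homozygous groups did not. In kif7co63/+ fish gdf6a was called lower than in AB (log2 fold change -0.78, SE 0.25, adjusted p = 0.0422), a call that did not hold under every alternative. Its log2 fold change was -1.27 in non-scoliotic (SE 0.30, adjusted p = 0.0143) and -1.10 in scoliotic fish (SE 0.26, adjusted p = 0.0147), the latter lost without AB 1 (adjusted p = 0.0504). gdf2 read 0.944 to 1.56 CPM in AB, so that scoliotic fish, with 7 to 17 reads, lay lower (-2.01, SE 0.48, adjusted p = 0.0146, and 0.0569 without AB 1) and non-scoliotic fish overlapped AB (-0.36, SE 0.53, adjusted p = 0.613).

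The procollagen protease gene bmp1a was higher in homozygotes. Its product trims the ends of fibrillar procollagens and cleaves chordin. It read 64.3, 57.5 and 54.5 CPM in AB, 46.1, 46.9 and 54.6 in kif7co63/+, 113, 120 and 118 in non-scoliotic and 124, 122.5 and 119 in scoliotic fish. The homozygous fish lay at 1.93-fold and 1.97-fold the AB level (adjusted p = 0.0006 and 0.000333) and at 2.35-fold and 2.47-fold the kif7co63/+ level (adjusted p = 0.000579 and 0.000533). Its duplicate bmp1b was not called in any group against AB. Summed cartilage markers, given above, were also higher in all 6 homozygotes than in the other 6 fish, as were summed bone markers in 5 of the 6. The bone sums read 3229 to 4016 CPM in AB, 4268 to 5394 in kif7co63/+, 7402 to 9404 in non-scoliotic and 7400, 3643 and 8994 in scoliotic fish. Summed liver markers were likewise higher in all 6 homozygotes than in the other 6 fish. They read 16129 to 17169 CPM in AB and 13408 to 16859 in kif7co63/+ fish. Homozygotes read 20770 to 23130 CPM (non-scoliotic) and 19667 to 21612 CPM (scoliotic). Summed somatic gonad markers were lower in all 6 homozygotes than in the other 6 fish. Summed epidermis markers overlapped between homozygotes and kif7co63/+ fish. The part of any of these markers in the values of tgfb2, tgfb3, gdf10a and bmp1a was not tested. Summed skeletal muscle markers read 24480 to 28082 CPM in AB, 38398 to 45444 in kif7co63/+ and 43337 to 53035 in homozygotes.

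Receptor genes went in both directions, though the duplicates of several genes moved together. Of 18 type I and type II receptor genes, 9 were called higher and 4 lower in scoliotic, and 10 higher and 4 lower in non-scoliotic fish, where 19.2% and 23.0% of all genes were in the first comparison and 21.2% and 21.9% in the second. tgfbr1b, a type I TGF-beta receptor, read 11, 9.79 and 10.9 CPM in AB, 15.3, 16.8 and 15.5 in kif7co63/+, 24.2, 21.8 and 24.3 in non-scoliotic and 21.8, 20.6 and 22.2 in scoliotic fish. kif7co63/+ fish lay between AB and homozygotes with no overlap, and the log2 fold changes against AB were 0.59 (SE 0.11, adjusted p = 0.00553), 1.10 (SE 0.10, adjusted p = 0.000458) and 0.96 (SE 0.10, adjusted p = 0.000598). Its paralogue tgfbr1a was called only in kif7co63/+ fish, which read 7.42, 6.78 and 6.15 CPM against 4.40, 4.55 and 3.30 in AB (0.74, SE 0.18, adjusted p = 0.0159, and 0.0624 without kif7co63/+ 1). Against kif7co63/+ fish, tgfbr1a was called lower in non-scoliotic (log2 fold change -1.03, SE 0.18, adjusted p = 0.00485) and in scoliotic fish (-0.65, SE 0.15, adjusted p = 0.0161). The type II gene tgfbr2b read 51.7 to 54.9 CPM in AB and 70.9 to 90.1 CPM in the other 9 fish, called in each group (0.46 to 0.66 on the log2 scale, adjusted p = 0.00565 in scoliotic, 0.00397 in non-scoliotic and 0.00219 in kif7co63/+ fish).

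The other type II TGF-beta receptor gene, tgfbr2a, read 4.53 to 6.5 CPM in AB, 7.5 to 9.13 in kif7co63/+, 10.3 to 17.4 in non-scoliotic and 8.62 to 10.9 in scoliotic fish. It was called at 1.20 in non-scoliotic fish (SE 0.24, adjusted p = 0.00781). Its calls at 0.75 in scoliotic fish (adjusted p = 0.0168) and 0.61 in kif7co63/+ fish (adjusted p = 0.0288) were lost without AB 3 (0.0522) or scoliotic 1 (0.0506), and without AB 2 or 3 or kif7co63/+ 1 or 3 (0.0682 to 0.0885). Of the BMP type II receptor genes, bmpr2b read 37.7, 32.6 and 35.4 CPM in non-scoliotic fish against 20.7, 19.2 and 22.6 in AB (0.71, SE 0.10, adjusted p = 0.00185). In kif7co63/+ fish it was called at 0.40 (SE 0.12, adjusted p = 0.0306). In scoliotic fish it read 36.6, 20.8 and 34.2 CPM, where replicate 2 lay within the AB range, and was not called (0.48, SE 0.21, adjusted p = 0.111). The same fish had the low sum of bone markers given above, 3643 CPM, and the part of these markers in bmpr2b was not tested. bmpr2a read 29.9 to 36.7 CPM in AB, 47.7 to 49.2 in non-scoliotic (0.54, adjusted p = 0.00548) and 43.5 to 51.4 in scoliotic fish (0.50, adjusted p = 0.0138, lost without AB 2 at 0.0515 or AB 3 at 0.0576).

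The activin type II receptors went in opposite directions by paralogue. acvr2aa read 63.3, 56.1 and 55.5 CPM in AB, 56.6, 57.8 and 66.3 in kif7co63/+, 80.9, 98.5 and 97.2 in non-scoliotic and 80.2, 106 and 81.9 in scoliotic fish. It was higher in homozygotes than in AB by 0.61 (SE 0.11, adjusted p = 0.00478) and 0.55 (SE 0.13, adjusted p = 0.0157), and the call in scoliotic fish was lost without AB 2 (adjusted p = 0.0573) or AB 3 (0.0624). acvr2bb was lower, at 7.92, 11.7 and 10.6 CPM in AB, 7.40, 7.72 and 9.98 in kif7co63/+, 6.39, 4.37 and 4.77 in non-scoliotic and 3.89, 5.31 and 5.98 in scoliotic fish. Its log2 fold changes were -1.01 (SE 0.21, adjusted p = 0.00916) and -1.06 (SE 0.23, adjusted p = 0.0103). acvr2ba was lower too, at 4.17 to 5.03 CPM in the 6 homozygotes against 7.32 to 10.3 in AB and 6.86 to 13.3 in kif7co63/+ fish (-1.12, adjusted p = 0.00236, and -0.99, adjusted p = 0.00462). Both acvr2b genes lay lower in every homozygote than in any AB or kif7co63/+ fish. The second acvr2a gene, acvr2ab, was called higher in non-scoliotic fish than in AB (0.40, SE 0.12, adjusted p = 0.0332).

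The BMP type I receptor genes also went in both directions. In non-scoliotic fish bmpr1aa was not called against AB (0.17, SE 0.18, adjusted p = 0.477). bmpr1bb was called lower there (-0.64, SE 0.15, adjusted p = 0.014). bmpr1ab read 20.1 to 22.6 CPM in AB, 22.1 to 25.4 in kif7co63/+ and 29.8 to 37.6 in homozygotes, called at 0.58 (adjusted p = 0.00635) in non-scoliotic and 0.67 (adjusted p = 0.00136) in scoliotic fish. bmpr1ba, the receptor through which GDF5 acts on cartilage in mammals, read 12.8 to 16.9 CPM in AB, 9.44 to 14.9 in kif7co63/+ and 6.54 to 8.65 in homozygotes, called at -0.98 (adjusted p = 0.00254) and -1.05 (adjusted p = 0.00223). acvrl1, the endothelial receptor of BMP9 and BMP10, read 44.0 to 47.0 CPM in AB, 38.7 to 45.6 in kif7co63/+ and 56.9 to 72.7 in homozygotes. It was called at 0.57 in non-scoliotic fish (SE 0.08, adjusted p = 0.00228), and its call at 0.41 in scoliotic fish was lost without AB 3 (adjusted p = 0.0546). acvr1l, the alk8 receptor of the zebrafish embryo, read 48.8 to 50.01 CPM in AB and 66.3 to 70.6 in homozygotes (0.44, adjusted p = 0.00346, and 0.38, adjusted p = 0.00486).

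**Figure D4:**
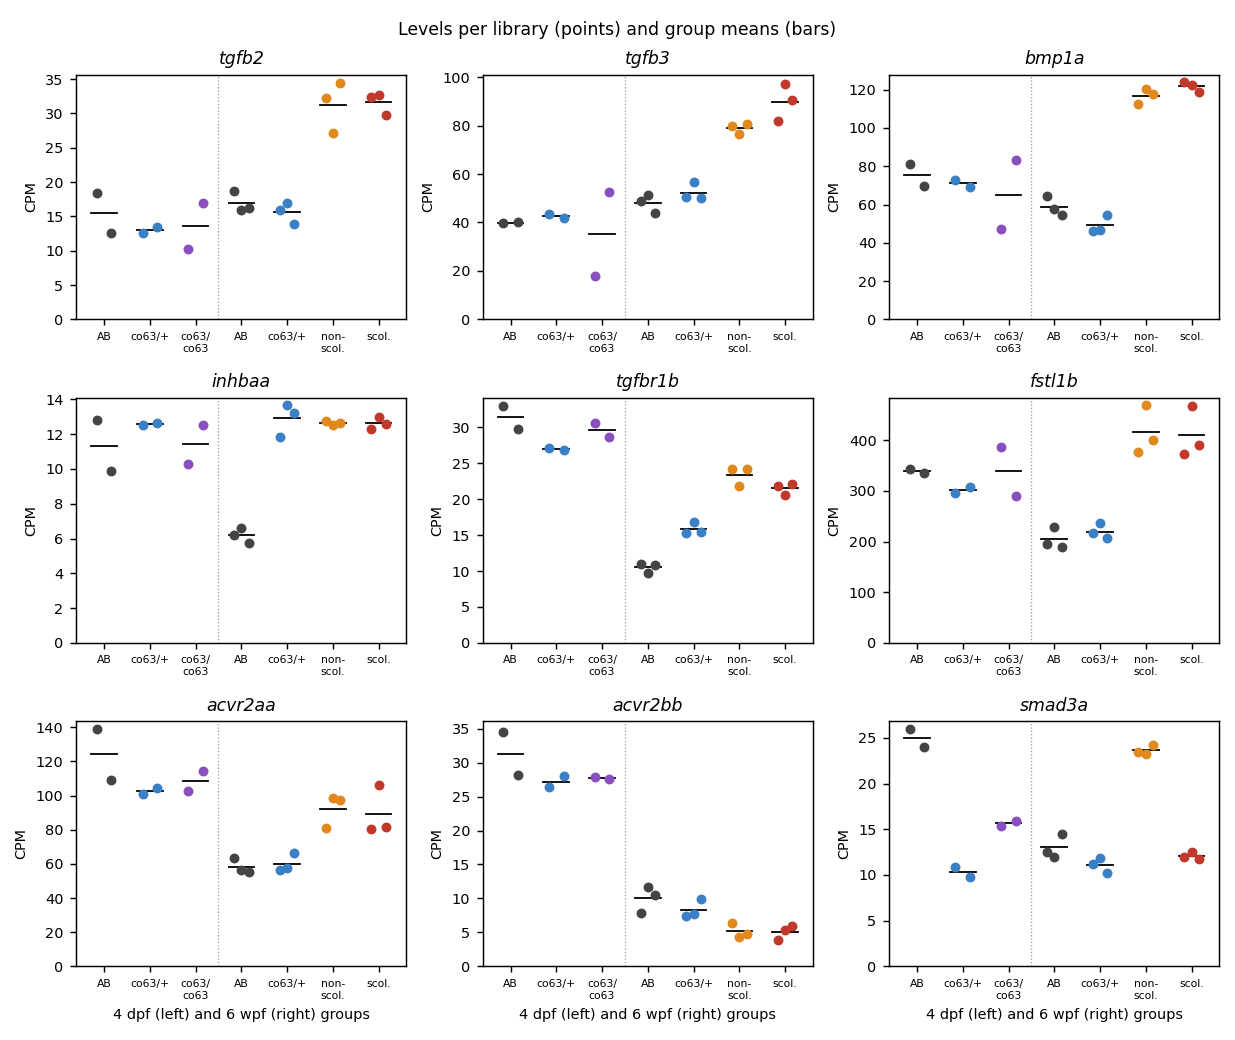
CPM of 9 signalling genes in each library (points, linear axes from 0) with group means (bars), for the 3 groups of 4 dpf left of the dotted line and the 4 groups of 6 wpf right of it. tgfb2, tgfb3, bmp1a, fstl1b and acvr2aa are higher in the 6 homozygotes of 6 wpf than in the other fish of that age, inhbaa is low only in AB fish of 6 wpf, and smad3a is high in AB embryos and in non-scoliotic fish.

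Among the Smad genes, smad2 and smad5, a TGF-beta and a BMP effector, were lower in homozygotes. smad2 read 97.6, 90.9 and 99.9 CPM in AB, 60.8, 41.3 and 82.9 in kif7co63/+, 46.9, 40.3 and 36.3 in non-scoliotic and 39.9, 42.9 and 41.1 in scoliotic fish. The homozygotes lay below every AB fish and overlapped kif7co63/+ fish. The log2 fold changes against AB were -1.27 (SE 0.11, adjusted p = 0.000482) and -1.29 (SE 0.08, adjusted p = 0.000129). smad5 read 116, 124 and 120 CPM in AB, 79.8, 66.3 and 109 in kif7co63/+, 63.8, 44.0 and 56.0 in non-scoliotic and 53.4, 49.1 and 46.8 in scoliotic fish, at -1.19 (SE 0.14, adjusted p = 0.000901) and -1.34 (SE 0.08, adjusted p = 0.000127). The common Smad gene smad4a moved by -0.37 in each homozygous group (adjusted p = 0.0205 and 0.0101), and the call in non-scoliotic fish was lost without AB 2 (adjusted p = 0.0658) or AB 3 (0.0644).

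The second Smad3 gene and the inhibitory Smads lay higher. smad3b read 12.4 to 14.5 CPM in AB, 12.8 to 14.2 in kif7co63/+, 21.7 to 25.4 in non-scoliotic and 17.7 to 25.3 in scoliotic fish. It was called in non-scoliotic fish at 0.73 (SE 0.11, adjusted p = 0.00207). In scoliotic fish the call (0.52, adjusted p = 0.04) was lost without any AB fish or scoliotic 2 or 3 (adjusted p = 0.0546 to 0.127). Of the 3 inhibitory Smads, non-scoliotic fish had all called higher and scoliotic fish none. The difference between those fish was not called for any of the 3: smad6a at 0.66 and 0.31 against AB differed by -0.32 (adjusted p = 0.525). smad6b was called in non-scoliotic fish at 0.32 and lost the call without AB 1 or 3 or non-scoliotic 1 or 3 (adjusted p = 0.0531 to 0.0978). smad7, which recruits ligases to TGF-beta receptors, read 11.1 to 12.4 CPM in AB, 16.5 to 17.2 in kif7co63/+, 17.3 to 19.3 in non-scoliotic and 13.3 to 17.7 in scoliotic fish. smad9, the third BMP receptor Smad, was not called in any group (0.37 to 0.51 on the log2 scale, adjusted p = 0.0604 to 0.202).

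Of 10 secreted antagonists tested, 2 were called higher and 1 lower in scoliotic, 3 higher and 1 lower in non-scoliotic, and 3 higher in kif7co63/+ fish, where 42.1%, 43.1% and 36.2% of all genes were called in either direction. bmper, which binds BMPs around vessels and in the forming skeleton, read 19.4, 19.1 and 19.7 CPM in AB, 16.5, 16.5 and 13.9 in kif7co63/+, 34.4, 30.1 and 36.3 in non-scoliotic and 33.8, 38.4 and 34.9 in scoliotic fish. Homozygotes lay above all other fish, by 0.74 (SE 0.09, adjusted p = 0.00119) and 0.81 (SE 0.08, adjusted p = 0.000546) over AB and by 1.09 (adjusted p = 0.00106) and 1.19 (adjusted p = 0.000772) over kif7co63/+ fish. The noggin gene nog2 was higher in all 3 kif7co63 groups, at 18 to 25.9 CPM in 9 fish against 10.3, 12.5 and 9.46 CPM in AB (0.84 to 0.93 on the log2 scale, adjusted p = 0.00214 to 0.00554). grem1b read 0.710 to 0.915 CPM in AB, 1.63 to 2.32 in kif7co63/+, 1.76 to 2.34 in non-scoliotic and 0.881 to 2.11 in scoliotic fish, called in the first 2 of these 3 groups (adjusted p = 0.0112 and 0.0128) and not in scoliotic fish (0.64, SE 0.40, adjusted p = 0.241). chrd was not called in any group (0.06 in scoliotic and 0.29 in non-scoliotic fish). grem1a (ENSDARG00000029546) had 18 to 63 reads per library in AB, 7 to 21 in kif7co63/+, 0 to 10 in non-scoliotic and 0 to 1 in scoliotic fish, called lower in scoliotic (adjusted p = 0.00343) and non-scoliotic fish (adjusted p = 0.0416). The second of these calls was lost without any AB fish or non-scoliotic 2 or 3 (adjusted p = 0.0544 to 0.137).

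Follistatin-like genes divided between the genotypes. fstl1b read 196, 228 and 190 CPM in AB, 216, 237 and 206 in kif7co63/+, 376, 469 and 401 in non-scoliotic and 372, 467 and 391 in scoliotic fish. The 6 homozygotes lay above the rest, at 1.97-fold (adjusted p = 0.00158) and 1.91-fold (adjusted p = 0.00158) the AB level. Its paralogue fstl1a was instead called in kif7co63/+ fish, at 13, 14.5 and 10.8 CPM against 5.41, 8.01 and 6.43 in AB (0.95, SE 0.18, adjusted p = 0.00564). fstl3, which encodes an inhibitor of activin, was higher in all 3 groups: 33.4 to 37.8 CPM in kif7co63/+ fish, 25.6 to 33.9 in homozygotes and 14.0 to 17.6 in AB (1.13, 0.87 and 0.71 in kif7co63/+, non-scoliotic and scoliotic fish, adjusted p = 0.000386, 0.00194 and 0.00392).

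gdf3 and tgfbrap1 were lower in homozygotes by larger folds than the Smads. gdf3, whose product acts with nodal in mesoderm and endoderm formation, read 201, 264 and 232 CPM in AB, 120, 96.7 and 174 in kif7co63/+, 50.1, 3.72 and 9.14 in non-scoliotic and 25.6, 1.91 and 3.12 in scoliotic fish. Within each homozygous group replicate 1 was the highest. The log2 fold changes against AB were -3.52 (SE 0.91, adjusted p = 0.0195) and -4.59 (SE 1.02, adjusted p = 0.0116), and the first was lost without AB 2 (adjusted p = 0.051) or non-scoliotic 3 (0.0615). tgfbrap1 read 39.7, 43.6 and 46.5 CPM in AB, 25.4, 18.9 and 35.1 in kif7co63/+, 15.8, 9.22 and 7.91 in non-scoliotic and 9.93, 6.17 and 8.46 in scoliotic fish, at 4.07-fold and 5.56-fold below AB (adjusted p = 0.00128 and 0.000186).

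Like gdf3 and tgfbrap1, the summed oocyte markers were highest in AB fish, then in kif7co63/+ fish, and lowest in homozygotes. In the same order of replicates they read 5094, 5833 and 5768 CPM in AB, 3511, 2809 and 5064 in kif7co63/+, 1228, 2.86 and 231 in non-scoliotic and 529, 4.34 and 46.0 in scoliotic fish. Within both homozygous groups gdf3 ranked the replicates as these sums did. tgfbrap1 did so in scoliotic but not in non-scoliotic fish, and smad5 in non-scoliotic but not in scoliotic fish. smad2 did so in neither homozygous group. In kif7co63/+ fish gdf3, tgfbrap1, smad2 and smad5 all ranked the replicates as the sums did. In AB fish gdf3 and smad5 did so, and tgfbrap1 and smad2 did not. Embryos, with oocyte markers at or under 4.60 CPM, read 2.46 to 7.47 CPM of gdf3, 6.41 to 10.5 of tgfbrap1, 17.0 to 49.4 of smad5 and 28.8 to 45.8 of smad2. The part of oocyte RNA in these decreases was not tested. In the 2 homozygous fish whose oocyte markers were under 5 CPM, gdf3 read 3.72 and 1.91 CPM, the first within and the second below the range of the embryos.

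**Figure D5:**
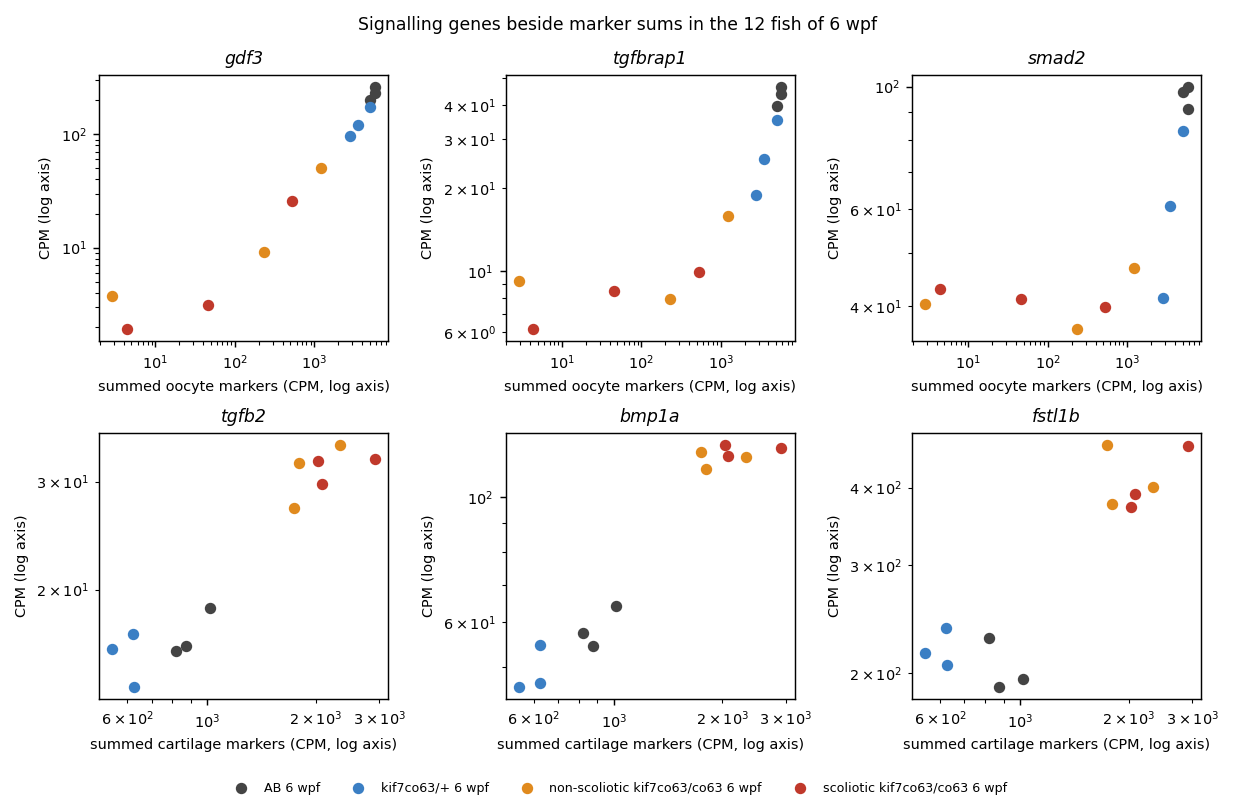
CPM of 3 genes against summed oocyte markers (top row) and of 3 genes against summed cartilage markers (bottom row) in the 12 fish of 6 wpf, all on log axes, coloured by group. gdf3 and tgfbrap1 are highest in the AB fish with the highest oocyte sums, and tgfb2, bmp1a and fstl1b are high in the 6 homozygotes, which also have the highest cartilage sums.

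bmp2k, a kinase gene named for its induction by BMP2, varied more within the homozygous groups than within the AB or kif7co63/+ groups. It read 18.4, 18.2 and 0.671 CPM in non-scoliotic and 13.7, 1.25 and 3.28 CPM in scoliotic fish, against 25.8, 29.5 and 23.2 in AB and 9.70, 9.46 and 12.4 in kif7co63/+ fish. Homozygous embryos read 2.52 and 6.27 CPM, below the 12 to 14.9 CPM of the other 4 pools. It was called in kif7co63/+ fish (log2 fold change -1.31, SE 0.15, adjusted p = 0.000466), a call that was lost when all 12 fish shared one estimate of the spread (adjusted p = 0.315).

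Against kif7co63/+ rather than AB fish, scoliotic fish had 16 of 74 genes higher and 11 lower (36.5% in all), where 36.9% of all genes were called, and non-scoliotic fish had 18 higher and 10 lower (37.8%), where 36.6% were. Higher in each comparison under every alternative were 9 genes in scoliotic fish, among them bmp1a, bmper, tgfb2, tgfb3, gdf10a and fstl1b, and 15 in non-scoliotic fish. Of the decreases, 2 of 11 and 2 of 10 held under every alternative. How many of all genes held under every alternative was not counted. Without kif7co63/+ 1, 14 genes were called in scoliotic fish in place of 27, and over all genes 5318 in place of 8389.

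At 4 dpf signalling genes were called between genotypes about as rarely as all genes, and the absence of a call does not show the absence of a difference. Between kif7co63/co63 and AB embryos 0 of 75 were called by edgeR, where 0.509% of all genes were. At an unadjusted p under 0.05 there were 2, against 1567 of all 22396 genes tested. DESeq2 called 2, against 638 of all 23785 genes that it tested. Between kif7co63/co63 and kif7co63/+ embryos 0 of 74 were called, where 0.0358% of all genes were (0.00895% higher and 0.0268% lower). At an unadjusted p under 0.05 there were 2, against 1173 of all 22349 genes tested. DESeq2 called 0, against 243 of all 24408 genes that it tested. Within the homozygous pair nog2 read 5.12 and 21.3 CPM, tgfb3 17.9 and 52.7 CPM and smad5 17.0 and 49.4 CPM, so that each pool fell on another side of AB. Without homozygous pool 2, 8 signalling genes were called against AB and 24 against kif7co63/+, while calls over all genes went from 114 to 2391 and from 8 to 7498. Without pool 1 the signalling genes called were 0 and 6, and all genes 689 and 3690. In these fits the other group alone gives the spread, and the remaining homozygous pool is assumed to vary like it.

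Between kif7co63/+ and AB embryos 3 of 74 were called (4.05%), where 6.21% of all genes were. Beside smad3a, they were smad5 and fstl1a. The pools did not overlap for any of the 3, as for 24.9% (higher) and 30.7% (lower) of all genes tested. smad5 read 40.3 and 37.8 CPM in kif7co63/+ and 26.5 and 26.3 in AB pools (log2 fold change 0.62, SE 0.15, adjusted p = 0.0444). fstl1a read 29.9 and 26.2 against 17.3 and 17.7 CPM (0.73, SE 0.16, adjusted p = 0.0372). All 3 calls were lost without either kif7co63/+ pool (adjusted p = 0.0771 to 0.398) and when the 6 pools shared one estimate of the spread, while 12 signalling genes were called without AB pool 2, when calls over all genes went from 1381 to 5240.

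Age moved the pathway in AB fish, with 13 of 76 genes higher at 6 wpf (17.1%) and 33 lower (43.4%), where 30.3% and 28.2% of all genes were, or 58.6% in either direction. Ranges lay wholly higher at 6 wpf for 17 genes and wholly lower for 38, where 37.3% and 37.1% of all genes did. The median log2 fold change was -0.34, against 0.00 over all genes. The increases were led by gdf3 (38.9-fold, adjusted p = 2.07e-06), tgfbrap1 (5.02-fold, adjusted p = 1.48e-05), smad5 (4.59-fold, adjusted p = 4.82e-06) and smad2 (2.60-fold, adjusted p = 5.7e-05), beside the rise in oocyte markers given above. bmp7a read 0.472 and 0.755 CPM at 4 dpf and 2.95, 2.82 and 1.96 CPM at 6 wpf (4.23-fold, adjusted p = 0.00288). bmp1b read 4.99 and 6.74 against 13.3, 19.6 and 17.9 CPM (2.91-fold, adjusted p = 0.000774).

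Decreases with age, called for 28.2% of all genes, included all 5 follistatin-like genes, 5 of 10 type I and 4 of 8 type II receptor genes, all 3 inhibitory Smads and 2 of 3 activin subunits. Summed cartilage markers read 3392 to 4808 CPM in AB embryos against 820 to 1015 in AB fish, and summed bone markers 613 to 628 against 3229 to 4016 CPM. Their part in these decreases was not tested. nog1 read 7.60 and 9.34 CPM at 4 dpf and 1.32, 1.25 and 1.67 CPM at 6 wpf (log2 fold change -2.57, SE 0.25, adjusted p = 0.000108). gdf6b, expressed in the dorsal neural tube of the zebrafish embryo, read 1.09 and 1.43 CPM at 4 dpf and 0.121, 0 and 0.0858 CPM at 6 wpf (adjusted p = 0.00549). The joint ligand gdf5 read 11.2 and 8.12 against 3.19, 2.24 and 1.44 CPM (-2.07, SE 0.34, adjusted p = 0.00139), and bmp4 read 22.0 and 20.1 against 6.34, 8.61 and 6.49 CPM (-1.55, SE 0.18, adjusted p = 0.00021). tgfbr1b fell by 1.56 on the log2 scale (SE 0.13, adjusted p = 4.95e-05). The calls of smad6b and smad7 at this age contrast were lost without AB embryo pool 2 (adjusted p = 0.055 and 0.0709) and 1 or more AB fish (0.0502 to 0.0645).

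In kif7co63/+ fish 17 of 75 genes were higher at 6 wpf and 28 lower (60.0% in all), where 53.8% of all genes were called. Between non-scoliotic homozygotes and homozygous embryos 9 were higher and 8 lower (22.7%), where 23.0% of all genes were. That count ran from 6 without non-scoliotic 3 to 33 without homozygous pool 2, and was 7 without non-scoliotic 1 and 9 without non-scoliotic 2, while calls over all genes, 5269 with every library, ran from 2205 to 9122. In kif7co63/+ fish inhbaa (12.6 and 12.6 CPM at 4 dpf, 11.9 to 13.7 at 6 wpf) and nog2 (19.4 and 17.6, then 18.3 to 21.1) were not called, where in AB fish inhbaa was lower at 6 wpf (log2 fold change -0.87, SE 0.19, adjusted p = 0.00572).

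Whether the difference from AB changed with age was tested by an interaction, the effect in scoliotic fish at 6 wpf less that in homozygous embryos at 4 dpf. It was called for 19 of 76 genes (25%), where 13.9% of all genes were, 14 with a positive and 5 with a negative value. The sign gives the direction of the shift and not the size of the effect. tgfbr1b gave 1.11 (SE 0.16, adjusted p = 0.00132), gdf10a 1.51 (SE 0.24, adjusted p = 0.00201), bmp8a 1.66 (SE 0.33, adjusted p = 0.00575) and bmp1a 1.26 (SE 0.26, adjusted p = 0.00742). tgfbrap1 gave -2.36 (SE 0.45, adjusted p = 0.00443), from a log2 fold change against AB of -0.05 at 4 dpf to -2.47 at 6 wpf. smad3a gave 0.57, from -0.68 at 4 dpf to -0.17 at 6 wpf, and neither fold change was itself called. The count was 6 without AB embryo pool 1, 11 without AB embryo pool 2, 32 without homozygous pool 2, 12 without AB fish 2, 10 without AB fish 3 and 12 without scoliotic 3, while calls over all genes, 3440 with every library, ran from 1278 without AB embryo pool 1 to 6665 without homozygous pool 2. The scoliotic group was compared with pools whose later curvature is unknown.

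Other genes of the pathway, from lists of secreted modifiers and other ligands, of intracellular modifiers and of transcriptional targets, were counted in the same fits. Between scoliotic and non-scoliotic fish 0 of 18, 0 of 27 and 0 of 30 were called, where 0.38% of all genes were. Against AB, where 19.2% of all genes were called higher and 23.0% lower, scoliotic fish had 9 secreted modifiers higher and 3 lower of 22, among the higher twsg1a, which binds chordin, and ltbp1, which stores latent TGF-beta. They had 5 intracellular modifiers higher and 5 lower of 27, and 12 targets higher and 2 lower of 30. The higher targets included tgfbi, postna, postnb and col1a1a, which encode matrix proteins, and id1, a direct BMP target, while id3 was lower. Non-scoliotic fish had 10 targets higher and 1 lower of 30 (all genes, 21.2% and 21.9%), and kif7co63/+ fish 13 higher and 1 lower (all genes, 18.6% and 17.6%). The median log2 fold change of the targets against AB was 0.36 in scoliotic, 0.24 in non-scoliotic and 0.51 in kif7co63/+ fish.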

How the data were processed

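RNA from 12 single fish (6 wpf) and 6 pools of 20 embryos (4 dpf) had been sequenced. The read counts per gene were made by the authors: reads with adapters or of low quality were removed, the rest were mapped to GRCz11 with HISAT2, and whole-number counts per Ensembl gene identifier were deposited without normalization. The study's methods give DESeq2 as the tool for its expression levels and its tests, and the submitters' processing notes also name fastp, StringTie and featureCounts, with no role given. The annotation release is not given in the sources used here. Whether the counting used strand, and how reads shared by duplicate genes were split, is not given in the sources used here. A second table with the authors' own comparison of scoliotic and kif7co63/+ fish (fold changes and p-values, and 18 per-sample columns) was not used.

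Genes were taken by symbol, and their 15 role classes and the 10 lists of other genes were written by hand. The genes and lists were chosen with earlier results of these data known. Each pair of groups was fitted alone with edgeR 4.0.16 in R 4.3.3: filterByExpr (minimum count 10, minimum total 15), TMM normalization and the quasi-likelihood F-test, with Benjamini-Hochberg adjustment over all tested genes and a threshold of 0.05. The interaction was fitted over 18 libraries. CPM used TMM sizes over the 18 libraries, and FPKM the gene lengths of the table. At most 3 reads in a library was treated as not detectable. DESeq2 1.42.0, RLE normalization, no filter, fits over more libraries, a replicate block and leaving out each library were alternatives. The code was tested on simulated data. Each fish library is 1 fish and each embryo library 1 pool; nothing says that they came from separate clutches, so p-values measure only the spread between these libraries. Sampling limits cover counting error only.

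Genes to name were listed by rule: those called between scoliotic and non-scoliotic fish or at 4 dpf, the 8 with the smallest p in each direction elsewhere, the most abundant of each role, and a set list of core genes, with others named where a count needed them. Not every gene that the rule listed is named in the text, among them chrdl2, fstl4, fstl5 and grem2b. Library pairs of a group differed by a chi-square of 27.4 to 479 per gene, so none was a repeat. Promoter letters, planned as a description, were not analysed here.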

Additional observations from a re-analysis of the deposited data

Results flagged for a closer look

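The difference from AB changed between homozygous embryos at 4 dpf and scoliotic fish at 6 wpf, by the interaction test, for 19 signalling genes. Values are the log2 fold change at 6 wpf less that at 4 dpf, with adjusted p = 0.00132 to 0.0496 by edgeR's quasi-likelihood test. Of the ligands, the values were 1.66 for bmp8a, 1.51 for gdf10a, 1.25 for gdf10b, 1.09 for tgfb2, 1.96 for tgfb2l and 1.02 for inhbaa. The protease gene bmp1a gave 1.26. Of the receptors, tgfbr1b gave 1.11, acvrl1 0.90, bmpr1ab 0.87, acvr2aa 0.81 and acvr2ba -1.33. Of the Smads, smad5 gave -1.60, smad2 -1.22, smad4a -0.76 and smad3a 0.57. The follistatin-like genes fstl1b and fstl3 gave 1.01 and 0.84, and the adaptor gene tgfbrap1 gave -2.36. Of the 19 calls, 13 were lost without AB embryo pool 1 (adjusted p = 0.0506 to 0.171). The 2 homozygous pools of embryos differed by a median of 0.71 on the log2 scale, and oocyte and cartilage marker sums moved with age and genotype. Their part was not tested.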

How the results depend on the processing

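Of 275 calls of named genes, 170 held under every alternative and 105 were lost under at least 1, 63 of them with the replicate block, and none changed sign. No comparison had every same-numbered pair correlated above 0.1 (r = -0.13 to 0.44), and the replicate numbers were treated as names. The highest values were those of scoliotic and non-scoliotic fish, at 0.44, 0.29 and 0.04 for replicates 1, 2 and 3. Whether these fish are paired cannot be told from these values. With the replicate block, called genes were 0 in place of 1 for scoliotic against non-scoliotic fish (all genes, 29 in place of 84). For scoliotic against kif7co63/+ fish they were 16 in place of 27 (all genes, 6305 in place of 8389). For non-scoliotic fish against homozygous embryos they were 9 in place of 17 (all genes, 3006 in place of 5269). For kif7co63/+ against AB embryos they were 1 in place of 3 (all genes, 1248 in place of 1381). For homozygous embryos they were 1 in place of 0 against AB (all genes, 526 in place of 114) and against kif7co63/+ (264 in place of 8). Homozygous and AB embryos correlated negatively (-0.13), and a crossed block, chosen after seeing the data, also called 1 (all genes, 562). DESeq2 called 2 (all genes, 638) and no filter 1 (all genes, 519) there. Between non-scoliotic fish and homozygous embryos DESeq2 called 26 in place of 17 (all genes, 7903 in place of 5269). A fit over all embryo libraries called 0 in place of 3 for kif7co63/+ against AB embryos (all genes, 21 in place of 1381). A fit over all 18 libraries called 40 in place of 17 between non-scoliotic fish and homozygous embryos (all genes, 10479 in place of 5269). A fit over all 12 fish moved the median of all genes against AB from 0.02 to 0.11 in scoliotic fish.

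Leaving out each library in turn gave 0 to 1 calls for scoliotic against non-scoliotic fish (all genes, 36 to 92). Against AB it gave 28 to 36 for scoliotic fish (all genes, 7139 to 9608) and 38 to 44 for non-scoliotic fish (all genes, 7514 to 9359). For kif7co63/+ fish it gave 17 to 29 (all genes, 5195 to 9202). Against kif7co63/+ it gave 14 to 23 for scoliotic (all genes, 5318 to 7971) and 19 to 25 for non-scoliotic fish (all genes, 5296 to 7870). At 4 dpf it gave 0 to 8 for homozygous and 0 to 12 for kif7co63/+ embryos against AB and 0 to 24 between them. For age it gave 38 to 44 in AB, 31 to 42 in kif7co63/+ and 6 to 33 in homozygous fish, and 6 to 32 for the interaction. Calls over all genes also moved with the library left out. The cause was not tested. Each comparison rests on 2 or 3 libraries per group, and those of homozygous embryos on 2 pools that disagree.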
